A study of Mus musculus with 12 samples.

Results

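RNA recovered with an antibody to the endogenous YTHDF1 protein was compared with total RNA of the same kind of lysate (Input) in cultured hippocampal neurons. The libraries were taken by their labels, and the 3 YTHDF1 RIP libraries and 3 Input libraries are 6 of the 12 libraries of the series. The other 6 are the YTHDF2 RIP and the YTHDF3 RIP, with 3 libraries each, and they enter the shared fit and the direct comparisons given last. All groups are primary neurons of newborn C57BL/6 mice, an inbred laboratory strain, with no genetic change and no treatment that differed between groups. Each culture came from a litter of pooled pups of both sexes and was kept for 14 days, with the antimitotic Ara-C added against dividing glia. By the study's methods, the wells of each replicate were pooled and the lysate divided among the 3 antibodies, with an Input shared by them. RNA from a control antibody was not analysed here, and each value therefore is a level in the RIP relative to Input and not an amount of bound RNA. The total count was 10037804, 20010605 and 38909592 in YTHDF1 RIP libraries 1, 2 and 3, and 13338235, 13833973 and 9092494 in Input libraries 1, 2 and 3.

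YTHDF1 is a cytoplasmic protein whose YTH domain binds N6-methyladenosine (m6A), the most common internal modification of mRNA. The nuclear METTL3 and METTL14 complex writes m6A at a subset of DRACH motifs, of which GGACT is the best known form, and the mark is most frequent in long internal exons and around stop codons. YTHDF1 is known for its links to translation, and in the hippocampus for its part in synaptic transmission and memory. Coding regions made of short exons, which lie close to exon junctions, are known to carry little m6A.

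Of 17126 genes with a mean of at least 10 normalized counts, 4662 were enriched in the YTHDF1 RIP, which is 27.2% of the genes tested, and 4414 were depleted, which is 25.8%. A call needed a log2 fold change of at least 0.32 in either direction and an adjusted p of at most 0.05 in edgeR's quasi-likelihood test over all genes. The 3 RIP libraries lay wholly above the 3 Input libraries for 4311 of the enriched genes and wholly below them for 4241 of the depleted genes. Both counts come from the libraries that set the calls, so they give no separate support. The share of all tested genes whose groups did not overlap was not counted. Changes are relative to the other RNAs of a library, so the balance of the 2 directions depends on the scaling. Enriched genes made up 51.4% of the calls with TMM factors, 40.03% with TMM factors from protein-coding genes and 33.2% with library size alone, and these scalings moved the median over all tested genes by -0.24 and -0.40. With the replicate number as a block in the model of all 12 libraries there were 4561 enriched and 4376 depleted genes, and with the block in a fit of the 6 libraries alone 2393 and 3033.

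The highest and lowest genes are given among called protein-coding genes that averaged at least 100 normalized counts and whose groups did not overlap. The highest of them in the YTHDF1 RIP were a host RNA of small nucleolar RNAs, zinc finger genes, clustered protocadherins and regulators of transcription, and the lowest were mostly ribosomal and respiratory chain genes. Levels are given as normalized CPM, counts per 1000000 of the TMM-scaled library, which are not divided by length. Snhg11 was at 12053, 10740 and 6187 CPM in the YTHDF1 RIP libraries and at 240.3, 140.3 and 71.5 CPM in Input. Snhg11, a small nucleolar RNA host gene at chr2:158375638-158386145 (GRCm38, plus strand), was the highest of them, at a log2 fold change of 6.00 ± 0.59 (SE, here and below with n = 3 and 3) and an adjusted p of 1.71e-05 in edgeR. The annotation types it as protein-coding although its open reading frame is short, and its exons overlap a small RNA gene on the same strand. Kantr was at 675, 1600 and 651 CPM in the YTHDF1 RIP libraries and at 28.5, 18.4 and 10.8 CPM in Input, and the log2 fold change of this Kdm5c-adjacent transcript was 5.66 ± 0.50. For both genes the lowest RIP library was far above the highest Input library.

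The zinc finger genes Zfp369, Zfp26 and Zfp738 encode DNA-binding proteins with arrays of zinc fingers. Zfp369 was at 1059, 3140 and 1334 CPM in the YTHDF1 RIP libraries and at 37.5, 38.2 and 37.3 CPM in Input, a log2 fold change of 5.61 ± 0.40. Zfp26 and Zfp738 were at 5.49 ± 0.45 and 4.99 ± 0.35. The single-exon protocadherins Pcdhb14 and Pcdhb15, homophilic adhesion proteins, were at 5.23 ± 0.36 and 5.02 ± 0.29. Pcdhb14 was at 285, 486 and 229 CPM in the YTHDF1 RIP libraries and at 9.82, 9.66 and 7.07 CPM in Input. The others of the 10 highest were D10Wsu102e at 5.35 ± 0.55, the single-stranded DNA- and RNA-binding protein gene Pura at 4.98 ± 0.40 and the ubiquitin ligase adaptor gene Klhl15 at 4.95 ± 0.35. D10Wsu102e was the most uneven of them, at 888, 5320 and 3482 CPM in the RIP libraries, yet its lowest RIP value was above all Input values, 81.6, 81.9 and 73.9 CPM. Its annotated exons sum to 123179 bases, with a coding length of 555 bases, so its CPM gathers reads over a very long stretch.

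Among the lowest genes, Rplp1, Rplp0, Rpl34, Rps21 and Rpl39 encode proteins of the cytosolic ribosome. Rplp1 was at 9.11, 20.7 and 5.11 CPM in the YTHDF1 RIP libraries and at 240.1, 250.2 and 232 CPM in Input, a log2 fold change of -4.38 ± 0.49 (adjusted p = 3.78e-05, edgeR). Rpl34 was at -3.97 ± 0.43, Rps21 at -3.94 ± 0.48, Rplp0 at -3.81 ± 0.39 and Rpl39 at -3.81 ± 0.45. The respiratory chain genes Cox7b, a subunit of complex IV, and Uqcc2, an assembly factor of complex III, were at -3.78 ± 0.38 and -3.74 ± 0.30. Gpx4, the glutathione peroxidase that protects membrane lipids, was at -3.83 ± 0.36. Rps12-ps3 was at -3.76 ± 0.71, and as a copy of Rps12 it can share reads with its parent gene. The lowest value among these genes, -4.61 ± 0.70, belonged to Ccnb1ip1, whose exons overlap on the same strand with Rpph1, the RNA of RNase P. Both genes had 477 CPM in RIP library 1 and 7450 in Input library 1, so reads of the 2 genes cannot be told apart. YTHDF1 RIP library 2 was the highest of the RIP libraries for Rplp1, Rpl34, Rps21, Gpx4, Rplp0, Rpl39, Cox7b, Rps12-ps3 and Uqcc2, and still below every Input library.

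**Figure D1:**
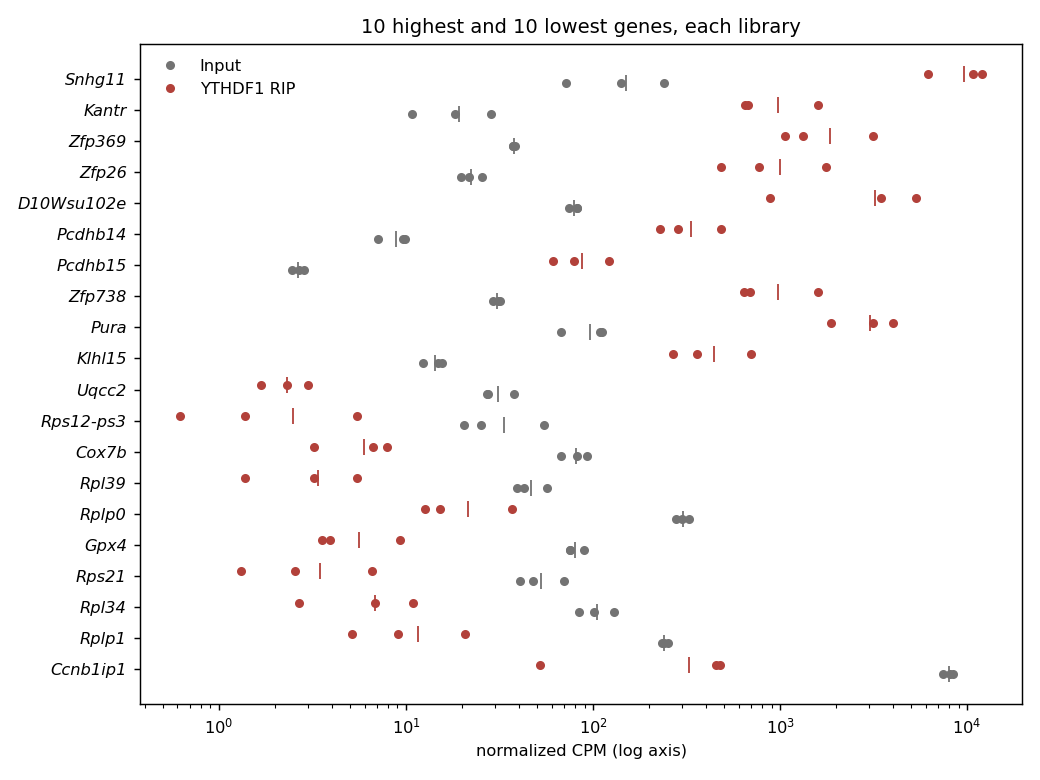
Normalized CPM (log axis) of the 10 highest and 10 lowest named genes by log2 fold change, 1 point per library and a tick at the group mean, red for the YTHDF1 RIP and grey for Input. The groups do not overlap for any gene shown, as the naming rule required, and the Snhg11 points of the RIP lie between 6187 and 12053 CPM.

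The most abundant enriched RNAs included very long mRNAs of the neuronal cytoskeleton, and CPM is higher for long RNAs at the same number of molecules. Map1b was at 29587, 57107 and 36457 CPM in the YTHDF1 RIP libraries and at 4186, 3161 and 3826 CPM in Input. Map1b encodes a microtubule-associated protein of growing axons and rose by a log2 fold change of 3.46 ± 0.33. Ank2, the giant ankyrin that ties membrane proteins to spectrin, was at 2.75 ± 0.25, and Dync1h1, the heavy chain of cytoplasmic dynein, at 3.41 ± 0.28. The hippocampal transcription factor gene Zbtb20 was at 3.44 ± 0.45 and Snhg11 completed the group. The most abundant depleted genes included Ubb, which encodes polyubiquitin, at -1.23 ± 0.27, the mitochondrial leucyl-tRNA synthetase gene Lars2 at -2.47 ± 0.58 and the cytoplasmic actin gene Actg1 at -0.93 ± 0.27, besides Ccnb1ip1. Lars2 was at 592, 388 and 91.2 CPM in the YTHDF1 RIP libraries and at 2236, 2203 and 1508 CPM in Input, so RIP library 3 was well below the other 2.

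Protein-coding genes made up 13521 of the genes tested, with 29.8% enriched, 23.1% depleted and a median log2 fold change of 0.12. Processed pseudogenes, retrotransposed copies of mRNAs, were depleted in 53.02% and enriched in 10.6% of 1592 cases, with a median of -1.15. Reads that aligned to several places were counted at every one, so a pseudogene's value can be that of its parent mRNA. Annotated ribosomal RNA genes were depleted in 30 of 41 cases and enriched in none, where 27.2% of all genes were enriched. Long intergenic RNAs were enriched in 106 and depleted in 62 of 348, which is 30.5% and 17.8%. For antisense RNAs it was 67 and 43 of 271, which is 24.7% and 15.9%. These shares enriched were near the 27.2% of all genes, and 25.8% of all genes were depleted. Small nuclear and small nucleolar RNAs varied widely between the RIP libraries. The median log2 ratio of 54 spliceosomal small nuclear RNA genes to the mean Input was 1.83, -0.77 and -2.32 in RIP libraries 1, 2 and 3, and none was called. For 79 small nucleolar RNA genes it was 1.93, -0.68 and -1.97, with 6 enriched and 3 depleted.

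Coding length gave the widest range in the share of enriched genes among the transcript features examined. Protein-coding genes were placed in 5 equal bins by the length of the coding sequence of their longest annotated coding transcript, for 13450 genes with such a transcript. In the shortest bin, up to 765 bases, 9.11% of genes were enriched and 58.1% depleted, with a median log2 fold change of -1.12. In the longest bin, from 2631 bases, 66.1% were enriched and 0.706% depleted, with a median of 1.12. The medians of the middle bins rose in order, from -0.48 to 0.03 and 0.44. The order held in each RIP library, and the longest bin was at 1.06, 1.00 and 1.32 in libraries 1, 2 and 3. Genes are not replicates, so these shares are descriptions with no test.

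**Figure D2:**
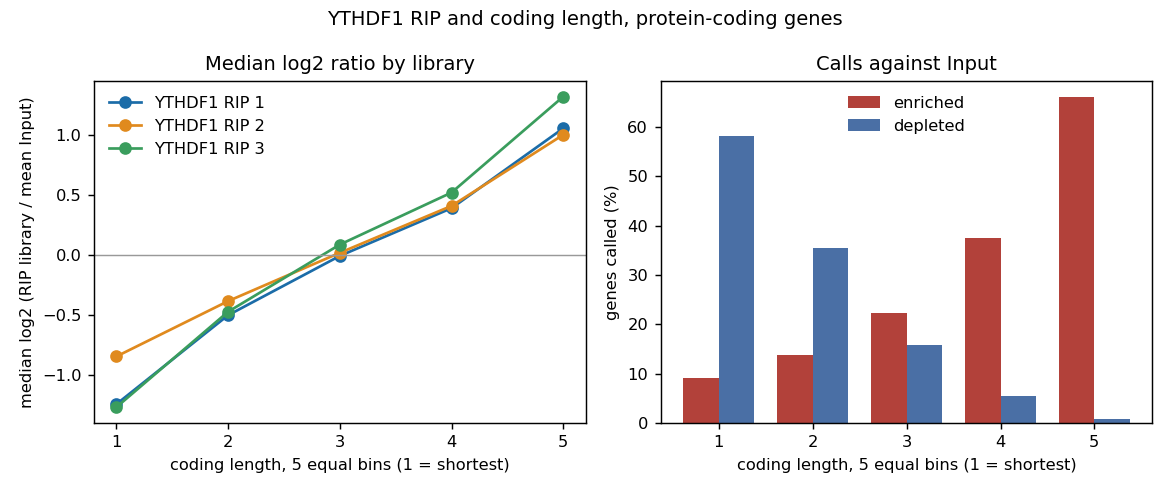
Left, median log2 ratio of each YTHDF1 RIP library to the mean Input (y axis) by bin of coding length (x axis), with a line per library. Right, share of genes in each bin called enriched or depleted against Input, in percent. The medians rise in every library, and the share enriched goes from 9.11% to 66.1% while the share depleted goes from 58.1% to 0.706%.

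The untranslated regions went the same way with a smaller spread. The bin with the shortest 3' UTRs had 20.2% enriched and the bin with the longest 46.1%, and for 5' UTRs the shares were 26.3% and 39.8%. With 3 equal bins in place of 5, among genes in the shortest bin of 3' UTRs, the share enriched still went from 4.75% to 47.2% from the shortest to the longest bin of coding length. Among genes in the longest of 3 bins of coding length, from 1953 bases, it went from 50.03% to 65.8% from the shortest to the longest of 3 bins of 3' UTRs. By summed exon length, which is the length the counting used, the shares enriched were 9.54% and 56.95% in the shortest and longest of 5 bins. The difference between these bins in median log2 fold change was 1.84. It was 0.41 after the length trend of each library was removed, as that correction is built to do.

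Exon number alone gave no steady order, but the length of the longest coding stretch within a single exon did. From the fewest to the most exon blocks the shares enriched were 28.3%, 20.9%, 18.7%, 27.8% and 53.1%, so both ends were above the middle. Of 466 single-exon protein-coding genes 39.7% were enriched, with a median log2 fold change of 0.51. By the longest coding stretch, the shares enriched went from 8.51% below about 189 bases to 62.5% from 837 bases, and the shares depleted from 52.6% to 1.86%.

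Within 3 equal bins of coding length the longest coding stretch still separated the genes. In the bin with short coding sequences, 5.02% were enriched where the stretch was short and 18.1% where it was long. In the middle bin these shares were 10.8% and 39.3%. In the bin with long coding sequences they were 41.3% and 74.4%. The same difference was present in each library, and for the middle bin the medians were -0.43, -0.16 and -0.26 with short stretches and 0.69, 0.32 and 0.65 with long stretches in libraries 1, 2 and 3. Library 2 had the smallest difference of the 3.

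**Figure D3:**
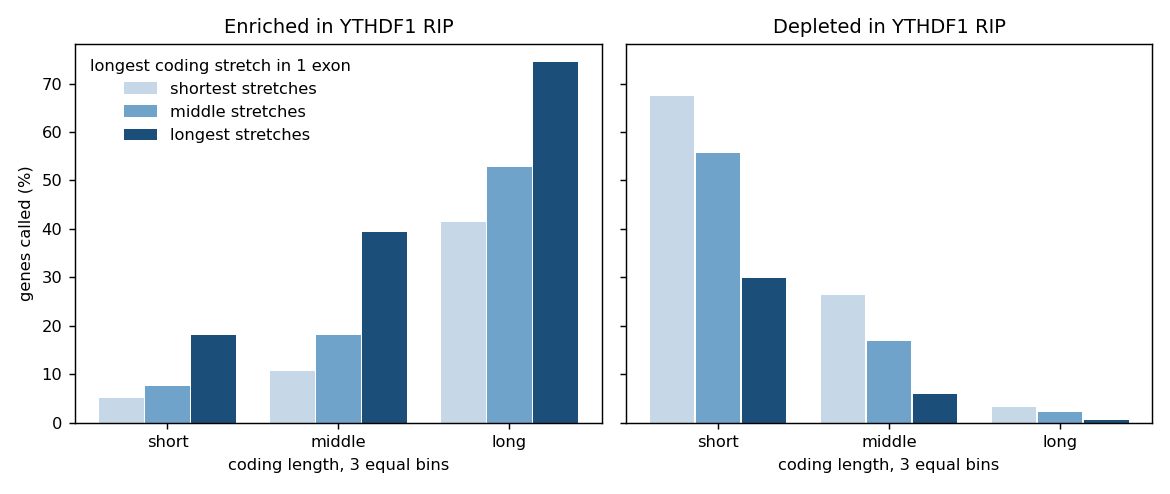
Share of protein-coding genes (y axis, percent) enriched (left) or depleted (right) in the YTHDF1 RIP, in 3 equal bins of coding length (x axis) and, within each, 3 of the longest coding stretch held in a single exon (bar shade). In every bin of coding length the share enriched rises with the stretch, up to 74.4%, and the share depleted falls.

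The letters GGACT did not separate the genes once length was set aside. The motif was searched on the transcript strand of the same transcripts, and 91.6% of them held it at least at 1 place. By its number per transcript the share enriched went from 13.1% to 52.9% across bins, while by its number per kb the 5 shares were 24.2%, 33.9%, 36.7%, 33.1% and 20.7%, with the lowest in the densest bin. Within the longest of 3 equal bins of coding length, and there in 3 bins of density, they were 56.6%, 59.5% and 52.6% from the lowest to the highest density. Within 200 bases of the stop codon, 39.2% of transcripts held a GGACT, and 29.8% of genes without it were enriched against 30.2% of genes with 1. A match of letters is not a methylated site, and methylation was not measured in these libraries.

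GC content had a weak relation to the calls that differed between libraries. The share enriched was 36.1% in the bin with the lowest GC content and 25.02% in the bin with the highest. The lowest bin had medians of -0.01, 0.45 and 0.31 in RIP libraries 1, 2 and 3 and the highest 0.21, -0.07 and 0.08, so library 1 ran against libraries 2 and 3.

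Abundant mRNAs were enriched more often than rare ones. When genes were ranked by their mean CPM in the YTHDF2 and YTHDF3 RIP libraries, which the contrast with Input does not use, 12.5% of the lowest bin and 57.6% of the highest were enriched, with medians of -0.30 and 0.90. By the level in Input alone the shares were 19.2% and 42.7% enriched and 10.1% and 22.004% depleted, and the medians of the 5 bins were 0.17, -0.11, 0.00, 0.19 and 0.43, with no steady order. A ranking by Input lowers the fold change of genes that happened to be high there, and a ranking by the other YTHDF RIPs can raise that of genes recovered in all 3 RIPs. The spread with abundance was larger among long mRNAs. With 3 equal bins of coding length and, within each, 3 of CPM, in the longest the share enriched went from 33.6% to 76.3% with rising CPM in the YTHDF2 and YTHDF3 RIP, in the middle bin from 13.9% to 30.8%, and in the shortest bin it was 8.23%, 6.63% and 15.8%. Low counts also make a call less likely, and the part of this in the shares was not tested.

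By chromosome the share of protein-coding genes enriched lay between 24.6% on chromosome 11 and 35.4% on chromosome 14, apart from chromosome 18 at 43.1%. Chromosome 18 holds the 3 protocadherin clusters, and without them 33.8% of its genes were enriched.

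The genes were then read by function, in 43 lists of genes, each described by its counts and its median log2 fold change beside the median of 0.02 over all genes tested. The lists also differ in coding length, which went with the calls. Medians with the length trend removed are given at the end for the lists that moved. The mRNAs of YTH proteins and of the m6A machinery come first, since YTHDF1 reads the mark that the latter writes. All 5 mRNAs of YTH readers were enriched. The Ythdf1 mRNA, which encodes the bait, was at 0.64 ± 0.21, with 69.97, 52.4 and 96.1 CPM in the RIP libraries and 46.05, 49.6 and 44.8 CPM in Input, a small rise with groups that did not overlap. Ythdf2 was at 1.29 ± 0.15, Ythdf3 at 2.24 ± 0.23, the nuclear reader Ythdc1 at 0.68 ± 0.20 and the helicase-containing reader Ythdc2 at 1.34 ± 0.26. With the length trend removed, Ythdc1 changed direction, to -0.46. The amount of protein was not measured.

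Of 10 writer and eraser genes, 5 were enriched and 1 depleted, among the enriched the scaffold gene Virma at 2.004 ± 0.19. Rbm15 was at 689.6, 1077 and 535 CPM in the YTHDF1 RIP libraries and at 22.9, 28.8 and 26.8 CPM in Input. Rbm15, an adaptor that guides the writer complex to its targets, was the highest of them at 4.87 ± 0.27, and its coding sequence lies almost wholly in a single exon, 2866 of 2886 bases. Its paralog Rbm15b was at 2.43 ± 0.23, Zc3h13 at 1.63 ± 0.20 and Wtap at 0.60 ± 0.23, although Rbm15b overlaps Manf on the same strand. The catalytic subunit Mettl3 was at 0.22 ± 0.24 (adjusted p = 0.455, edgeR), its partner Mettl14 at 0.21 ± 0.33 (0.628), the ligase Cbll1 at 0.37 ± 0.27 (0.266) and the demethylase Alkbh5 at 0.00 ± 0.18 (0.989), none of which passed. Without RIP library 2 Mettl14 was at -0.50. The demethylase Fto was depleted, at -0.51 ± 0.16.

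Genes of histone modification and chromatin remodelling, most with long coding sequences, were mainly enriched. Of 35 histone methylation genes 31 were enriched and none depleted, with a median of 1.40. The H3K4 methyltransferases Kmt2d and Kmt2a were at 3.37 ± 0.25 and 2.696 ± 0.18. Of 24 acetylation and coactivator genes 18 were enriched and 2 depleted, with a median of 1.40. Crebbp was at 2946, 3584 and 3292 CPM in the YTHDF1 RIP libraries and at 176, 198 and 178 CPM in Input. Crebbp, the acetyltransferase CBP, was at 4.15 ± 0.20 with an adjusted p of 8.42e-07 in edgeR, and Kat6a was at 2.77 ± 0.18. The depleted ones were Kat2b at -1.02 ± 0.28 and Kat8 at -0.59 ± 0.18. Of 29 remodelling genes 22 were enriched and 3 depleted, with a median of 1.60. The large BAF subunits Arid1b and Arid2 were at 2.86 ± 0.18 and 2.53 ± 0.17, while the small BAF subunits Smarcd3 and Actl6b were at -1.78 ± 0.22 and -0.88 ± 0.20 and the core subunit Smarcb1 at -0.82 ± 0.23. Corepressors and histone deacetylases went both ways, with 10 of 24 enriched and 5 depleted. Tbl1xr1 and Hdac4 were at 3.46 ± 0.41 and 1.84 ± 0.32, and Hdac11 and the methyl-CpG binding protein gene Mbd2 at -0.92 ± 0.29 and -0.89 ± 0.22. The other depleted ones were Tbl1x, Hdac1 and Mbd3, at -0.86 ± 0.17, -0.68 ± 0.25 and -0.67 ± 0.19.

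Zinc finger genes named Zfp were the largest list. Of 342 tested, 189 were enriched and 22 depleted, with a median of 0.76 and of 0.85, 0.66 and 0.68 in the single libraries. Besides Zfp369 and Zfp26 at the top, the lowest were the short Zfp580 and Zfp706, at -1.76 ± 0.32 and -1.60 ± 0.21. Related zinc finger genes share sequence, and a read aligned to several of them was counted for each.

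Transcription factors of hippocampal neurons were mostly enriched. Of 28 tested, 17 were enriched and none depleted, with a median of 1.86. Zbtb18 was at 4511, 9023 and 3277 CPM in the YTHDF1 RIP libraries and at 319, 281 and 389 CPM in Input. Zbtb18, a repressor of cortical and hippocampal neuron development, was at 4.09 ± 0.38, and Nfia, of the nuclear factor I family, at 3.95 ± 0.67. Nfia was at 1156, 6886 and 1062 CPM in the YTHDF1 RIP libraries and at 139, 231 and 221 CPM in Input, so RIP library 2 was far above the other 2 for Nfia. The proneural factors Neurod1, Neurod2 and Neurod6 were at 0.60 ± 0.31, 0.59 ± 0.24 and 0.09 ± 0.28 and did not pass. Without RIP library 2 the median of this list less that of all genes was 1.40, against 1.84 with it. Activity-induced immediate early genes, which neurons transcribe upon stimulation, were enriched in 8 of 21 cases and depleted in none. The neurotrophin gene Bdnf was at 2.05 ± 0.59 and Egr2 at 2.01 ± 0.38. Their medians were 1.30, -0.37 and 1.86 in RIP libraries 1, 2 and 3, so library 2 was on the other side of 0.

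Cell adhesion genes rose almost as a whole. All 56 clustered protocadherins tested were enriched, with a median of 1.20. The alpha and gamma genes share their last exons, a read there was counted for each gene, and 37 of the 56 overlap another gene on the same strand, so they are not that many separate results. Without the overlapping genes the median less that of all genes tested was 3.64, against 1.18 with them. Of 18 adhesion GPCRs and large cadherins 17 were enriched, led by the giant cadherins Dchs2 at 3.43 ± 0.48 and Fat4 at 3.07 ± 0.32. Of 21 neurexins, neuroligins and leucine-rich repeat proteins, which join the 2 sides of a synapse, 19 were enriched, with a median of 2.08. The synapse organisers Lrrtm4 and Slitrk1 were at 3.36 ± 0.38 and 3.25 ± 0.23, and the coding sequence of Slitrk1 is a single exon. None of these 3 lists had a depleted member, where 25.8% of all genes were depleted.

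Of 46 axon guidance genes 30 were enriched, with Sema4d at 2.60 ± 0.18 and the ephrin receptor Epha3 at 2.25 ± 0.33, and 1, the ephrin Efnb3, was depleted at -0.52 ± 0.20. The share enriched was 65.2% at a median coding length of 2959.5 bases, near the 66.1% in the longest of 5 bins of coding length. Extracellular matrix genes were enriched in 22 of 58 cases and depleted in none. Their share enriched was 37.9% at a median coding length of 5073 bases. In the longest of 5 bins of coding length, from 2631 bases, 66.1% of genes were enriched. The neuronal collagens Col19a1 and Col25a1 were at 4.79 ± 0.37 and 4.20 ± 0.73. Glial markers moved between the libraries, as given below, and their part in the matrix genes was not tested.

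Genes of the synapse were taken by kind of protein. Scaffolds of the presynaptic active zone were enriched in 13 of 21 and depleted in 2 cases. With a median coding length of 3561 bases, 61.9% were enriched, beside 66.1% of genes in the longest of 5 bins of coding length. Bsn was at 6477, 1688 and 9680 CPM in the YTHDF1 RIP libraries and at 789.8, 655 and 399 CPM in Input, a log2 fold change of 3.27 ± 0.64, with RIP library 2 the lowest of the 3. The other giant scaffold, Pclo, was at 3.08 ± 0.38, and the small scaffold genes Lin7a and Lin7b were depleted at -1.43 ± 0.43 and -1.37 ± 0.33. Synaptic vesicle and SNARE genes were enriched in 1 of 30 and depleted in 6 cases, which is 3.33% and 20% where 27.2% and 25.8% of all genes were, with the vesicle proteins Vamp2 at -1.61 ± 0.28 and Syngr3 at -1.57 ± 0.34. The calcium sensor Syt2 was enriched, at 1.50 ± 0.51. Postsynaptic scaffolds were enriched in 11 of 25 and depleted in 2 cases. Their share enriched was 44% at a median coding length of 2976 bases. In the longest of 5 bins of coding length, from 2631 bases, 66.1% of genes were enriched. Ppp1r9a, which encodes neurabin, and Dlgap2 were at 2.30 ± 0.19 and 2.18 ± 0.42, and the short mRNAs of Nrgn, the calmodulin-binding neurogranin, and Homer3 at -1.52 ± 0.28 and -0.60 ± 0.20. Dbn1, which encodes the actin-binding drebrin and is counted in the growth cone list below and not among these scaffolds, was at 0.82 ± 0.22.

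Ionotropic glutamate receptors were enriched in 11 of 17 cases and depleted in none. At a median coding length of 2877 bases, 64.7% were enriched, beside 66.1% of genes in the longest of 5 bins, from 2631 bases. Grin2b was at 3908, 5836 and 9243 CPM in the YTHDF1 RIP libraries and at 1354, 1049 and 961 CPM in Input, and the log2 fold change of this NMDA receptor subunit was 2.50 ± 0.34, with the kainate receptor subunit Grik2 at 1.70 ± 0.33. Of 14 GABA receptor genes only 2 were enriched and 3 were depleted, with Gabrg3 at 2.18 ± 0.56 and Gabra5 and Gabra3 at -1.31 ± 0.30 and -1.19 ± 0.30. Gabrg1 was enriched as well, at 1.54 ± 0.46. Of the GABA receptor genes 14.3% were enriched and 21.4% depleted, beside 27.2% and 25.8% of all genes. Voltage-gated sodium and calcium channel genes were enriched in 15 of 32 cases, with the sodium channels Scn1a and Scn3a at 2.79 ± 0.57 and 2.61 ± 0.23, and the small beta subunit Cacnb3 was depleted at -0.78 ± 0.20. Their share enriched was 46.9% at a median coding length of 3451.5 bases. In the longest of 5 bins of coding length, from 2631 bases, 66.1% of genes were enriched. Potassium channel genes were enriched in 29 of 68 and depleted in 4 cases. They were listed by symbol, which takes in auxiliary Kcnmb subunits and channel-interacting Kcnip proteins. Kcnb2 and Kcnmb2 were at 3.87 ± 0.34 and 3.78 ± 0.47, and Kcnip1 and Kcnmb4 at -1.31 ± 0.44 and -0.93 ± 0.17. Kcnip4 and Kcnu1 were depleted too, at -1.60 ± 0.58 and -1.04 ± 0.40. For potassium channels RIP library 2 had a median of 0.03, against 1.07 and 1.26 in libraries 1 and 3.

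Microtubule-associated and ankyrin-spectrin genes were enriched in 20 of 23 cases, with a median of 1.49, and Map1b and Ank2 led them. Kinesin and dynein genes were enriched in 21 of 43 and depleted in 2 cases, led by Dync1h1 and by Dync2h1, the dynein of cilia, at 2.30 ± 0.20, while Kif9 and Dync2li1 were at -0.71 ± 0.26 and -0.60 ± 0.20. Their share enriched was 48.8% at a median coding length of 3102 bases. In the longest of 5 bins of coding length, from 2631 bases, 66.1% of genes were enriched. The list of tubulins and actins, which also holds gamma-tubulins and actin-related genes, had 4 depleted and no enriched gene among 18. The share depleted, 22.2%, was near the 25.8% of all genes. Their median less that of all genes was -0.61 without RIP library 2 and 0.20 without RIP library 1, against -0.14 with all libraries. Named among them were the gamma-tubulins Tubg2 and Tubg1 at -1.78 ± 0.43 and -0.98 ± 0.21, besides Actg1 and Actr3 at -0.93 ± 0.27 and -0.70 ± 0.23. Growth cone and neurofilament genes were enriched in 3 and depleted in 8 of 22 cases. Dpysl2, the collapsin response mediator CRMP2, and Marcks were at 2.81 ± 0.53 and 2.36 ± 0.46, and the short thymosin mRNAs Tmsb4x and Tmsb10, whose proteins bind monomeric actin, at -3.71 ± 0.45 and -2.29 ± 0.82.

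The calmodulin genes Calm2 and Calm3 were depleted, at -1.04 ± 0.23 and -1.39 ± 0.27. Their partners of the CaMKII family, kinases of synaptic plasticity, were at 0.13 ± 0.51 for Camk2a, 0.51 ± 0.20 for Camk2b, 1.06 ± 0.25 for Camk2d and 1.03 ± 0.24 for Camk2g, of which Camk2d and Camk2g passed. Camk2a was at 695, 447 and 1203 CPM in the YTHDF1 RIP libraries and at 947, 821 and 369.7 CPM in Input, so the groups overlapped for Camk2a. Camk2d turned to -0.64 with the length trend removed. Of 17 RNAs known to be carried into dendrites, 6 were enriched and 3 depleted, which is 35.3% and 17.6% beside 27.2% and 25.8% of all genes. Their median less that of all genes was 0.84, and it was 0.45 without RIP library 3. The enriched ones included Bdnf and the calcium release channel Itpr1 at 1.51 ± 0.26, and the depleted ones were Nrgn, the elongation factor Eef1a1 at -1.18 ± 0.33 and the non-coding Bc1.

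The list named giant ubiquitin ligases had the highest median of any list, 2.36, with 16 of 18 enriched and none depleted. Its median coding length was 8124 bases, but some members, such as Ube3a, are not of giant size. Ube3a, the ligase of Angelman syndrome, was at 3.32 ± 0.43 and Rnf213 at 3.03 ± 0.72. Deubiquitinases named Usp were enriched in 26 of 46 and depleted in 3 cases, with Usp9x and Usp53 at 3.29 ± 0.34 and 2.31 ± 0.25 and Usp3 and Usp21 at -0.67 ± 0.23 and -0.58 ± 0.17. Usp50 was at -2.28 ± 0.34. Of the Usp genes 56.5% were enriched, at a median coding length of 2824.5 bases. In the longest of 5 bins of coding length, from 2631 bases, 66.1% of genes were enriched. The proteasome, which receives substrates of ubiquitin ligases, was depleted in 21 of 35 cases, with a median of -1.16. Psmb3 and Psma6 of the catalytic core were at -2.19 ± 0.27 and -2.06 ± 0.32, and the enriched member was Psmd2, the large base subunit of the regulatory particle, at 0.81 ± 0.16.

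Regulators of translation and of mRNA decay were more often enriched than the translation machinery. In the list of mTOR and translational control 14 of 24 genes were enriched and 2 depleted. The cytoplasmic polyadenylation proteins Cpeb2 and Cpeb3 were at 4.93 ± 0.44 and 3.65 ± 0.48, and the GTPase gene Rheb, an activator of mTOR, and Eif4g2 at -1.18 ± 0.22 and -1.02 ± 0.18. Genes of the CCR4-NOT deadenylase, decapping and miRNA machinery were enriched in 16 of 26 and depleted in 3 cases. The GW182 proteins Tnrc6c and Tnrc6b were at 3.44 ± 0.21 and 3.13 ± 0.22, and the short deadenylase subunits Cnot7 and Cnot9 at -1.75 ± 0.21 and -0.88 ± 0.16, with Cnot2 at -0.77 ± 0.18. Of 65 initiation and elongation factors 35 were depleted and 10 enriched, with the scaffolds Eif4g1 and Eif4g3 at 2.18 ± 0.19 and 1.90 ± 0.21 and the small factors Eef1b2 and Eif3i at -2.35 ± 0.48 and -1.997 ± 0.24.

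The core spliceosome had 23 depleted and 9 enriched genes of 45. The Sm proteins Snrpf and Snrpd3, small subunits of every major spliceosomal particle, were at -2.74 ± 0.40 and -1.997 ± 0.31, and the giant Prpf8 and Sf3b1 at 2.09 ± 0.23 and 1.38 ± 0.18. SR proteins and hnRNPs were enriched in 8 and depleted in 4 of 31 cases, a share of 25.8% enriched beside 27.2% of all genes, with the single-exon Hnrnpa0 at 2.04 ± 0.29 and Hnrnpm at 1.20 ± 0.28, and Srsf12 and Srsf7 at -1.39 ± 0.24 and -1.07 ± 0.38. Srsf2 and Srsf11 were depleted as well, at -0.93 ± 0.34 and -0.57 ± 0.19. Their medians were -0.46, 0.67 and 0.09 in libraries 1, 2 and 3, with no common direction.

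The cytosolic ribosome was depleted as a whole. Of 83 ribosomal protein genes tested, 82 were depleted and none enriched, with a median of -2.45, below the median of -1.12 in the shortest of 5 bins of coding length. The medians of the single libraries were -2.93, -1.60 and -3.80. Ribosomal protein mRNAs are known for a run of pyrimidines that begins with the C at their start (the 5' terminal oligopyrimidine motif), through which mTOR controls their translation. To show these starts, the first 30 bases of the 6 lowest of these genes that had the motif at the RefSeq start are given (GRCm38.p6, 5' to 3', the C and the 4 pyrimidines after it in capitals), at chr2:180257379-180257408 (plus strand) for Rps21, chr16:33056482-33056511 (plus strand) for Rpl35a, chr3:90213619-90213648 (minus strand) for Rps27, chr17:27635215-27635244 (minus strand) for Rps10, chr17:33955636-33955665 (minus strand) for Rps18, chr7:118116118-118116147 (minus strand) for Rps15a.
Rps21: CTCCTgcccaatagtgctgcggaggcacga
Rpl35a: CTCTTtccgccatcttggcgcctgtggagg
Rps27: CCTTTccggcggtgacgacctccctacgag
Rps10: CTTCCtttccagcctccgcctcggaccctg
Rps18: CTCTCttccacaggaggcctacacgccgcc
Rps15a: CTTCCctcgccggtgagtgagtgtttgtga
The log2 fold changes of these 6 genes were -3.94 ± 0.48 for Rps21, -3.53 ± 0.43 for Rpl35a, -3.45 ± 0.49 for Rps27, -2.83 ± 0.48 for Rps10, -2.81 ± 0.47 for Rps18 and -2.51 ± 0.45 for Rps15a. For comparison the starts of 3 of the genes highest in the RIP, at chr2:158375713-158375742 (plus strand) for Snhg11, chrX:152327464-152327493 (minus strand) for Kantr, chr9:20460131-20460160 (minus strand) for Zfp26, are shown with no capitals, since none begins with the motif. The 6 above were chosen for the motif, which 2.96% of tested protein-coding genes matched had at the start. Its absence in these 3 is therefore no result about the RIP.
Snhg11: actcacgcactcagcctgctaggcaagtca
Kantr: tggtggagcatcgctatcctgccagggttc
Zfp26: atcgagaaggccgttctcgctcagaaatct

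The motif, a C at the annotated start followed by 4 bases that are each C or T, was read on the transcript strand only. It was at the start of 14 of 62 matched ribosomal protein genes (22.6%) and of 2.51% of all 32851 promoters of the same length. Within 10 bases of the start these shares were 59.7% and 30.7%. Without the ribosomal proteins, 24.4% of genes with the motif and 23.2% of genes without it were depleted. It was at the start of 2.77% of all enriched and 3.45% of all depleted protein-coding genes matched. In the shortest of 3 equal bins of coding length, without ribosomal proteins, 100 genes with the motif had a median of -0.93 and 3312 genes without it a median of -0.86. Annotated starts can miss the base at which most transcripts begin.

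Mitochondrial functions encoded in the nucleus were depleted nearly throughout. Of 76 respiratory chain genes 69 were depleted, with a median of -2.24. Cox7b was at 6.69, 7.92 and 3.23 CPM in the YTHDF1 RIP libraries and at 92.6, 81.9 and 67.4 CPM in Input. Atp5e, a subunit of ATP synthase, was at -3.74 ± 0.44, and the 2 enriched genes were subunits of complexes I and II, Ndufs1 at 1.24 ± 0.17 and Sdha at 0.68 ± 0.19. Of 78 mitochondrial ribosomal protein genes 72 were depleted and none enriched, with Mrpl52 and Mrpl42 at -2.85 ± 0.33 and -2.71 ± 0.36. RIP library 2 was the least depleted of the 3 for both lists, at -1.70 and -1.20.

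Chaperones and glycolytic enzymes had no common direction. Of chaperones 28.6% were enriched and 23.8% depleted, and of glycolytic genes 33.3% and 16.7%, beside 27.2% and 25.8% of all genes. Chaperones were enriched in 18 and depleted in 15 of 63 cases, with the heat-inducible single-exon genes Hspa1a and Hspa1b, which are nearly identical and can share reads, at 2.41 ± 0.28 and 2.38 ± 0.27 and Hspe1 and Dnajc27 at -2.35 ± 0.35 and -1.54 ± 0.31. Of 18 glycolytic genes 6 were enriched and 3 depleted, with Gpi1 and Hk2 at 2.25 ± 0.33 and 2.15 ± 0.48 and Gapdh and Tpi1 at -1.45 ± 0.31 and -1.32 ± 0.35. Ldhb was at -0.94 ± 0.21.

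Small RNAs made by RNA polymerase III, which carry no long poly(A) tail, were the lowest list. Of 10 entries 9 were depleted, with a median of -3.77. Rn7sk was at 554, 896 and 103 CPM in the YTHDF1 RIP libraries and at 4618, 5292 and 7352 CPM in Input, and this inhibitor of the elongation factor P-TEFb was at -3.48 ± 0.67. Bc1, a neuronal RNA that represses translation in dendrites, was at -4.32 ± 0.63, the Y RNAs Rny1 and Rny3 at -4.07 ± 0.73 and -2.43 ± 0.69, Rmrp at -2.96 ± 0.70, Rpph1 at -4.61 ± 0.70 and the 7SL RNAs Rn7s1 and Rn7s2 both at -4.39 ± 0.70. The vault RNA Vaultrc5 was at -1.10 ± 0.72 and did not pass. The 2 Rn7s genes share their reads, and Rmrp is entered under 2 identifiers with the same counts. RIP library 3 was the lowest for each of these RNAs.

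In the list of nuclear long non-coding RNAs 3 of 12 were enriched and 2 depleted, and where these RNAs lie in the cell was not measured. That is 25% and 16.7%, beside 27.2% and 25.8% of all genes. Snhg11 and Kantr, both typed as protein-coding by the annotation, were described above among the highest protein-coding genes. Xist, the RNA of the inactive X chromosome, was at 3.03 ± 0.72. Malat1 was at 1510, 1399 and 344 CPM in the YTHDF1 RIP libraries and at 9379, 9362 and 5746 CPM in Input, a log2 fold change of -2.91 ± 0.52 for this RNA of nuclear speckles. The imprinted Meg3 was depleted at -1.58 ± 0.50, and its neighbours Rian and Mirg at 0.50 ± 0.20 and -0.26 ± 0.51 did not pass. Neat1, Miat, Gas5, Pvt1 and Kcnq1ot1 did not pass either, at -0.77 ± 0.75, -1.04 ± 0.50, -0.81 ± 0.58, -0.55 ± 0.24 and 1.15 ± 0.54. Malat1 and Meg3 were lower in RIP library 3 than in libraries 1 and 2, and 10 of these 12 genes overlap other genes on the same strand. Rian and Kcnq1ot1 turned to -1.44 and -1.59 with the length trend removed.

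Replication-dependent histones, whose mRNAs end in a stem-loop and lack introns, varied widely between libraries. Of 68 tested 17 were depleted and 1 enriched, and the share depleted, 25.00%, was near the 25.8% of all genes, with Hist1h4c and Hist1h4h at -2.93 ± 0.51 and -2.52 ± 0.60 and Hist2h2be at 1.33 ± 0.40. Their median was -1.31, 0.72 and -2.40 in RIP libraries 1, 2 and 3, so library 2 was above Input and the others below it. The median less that of all genes was -0.55, and it was -2.17 without RIP library 2 and 0.10 without Input library 3.

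**Figure D4:**
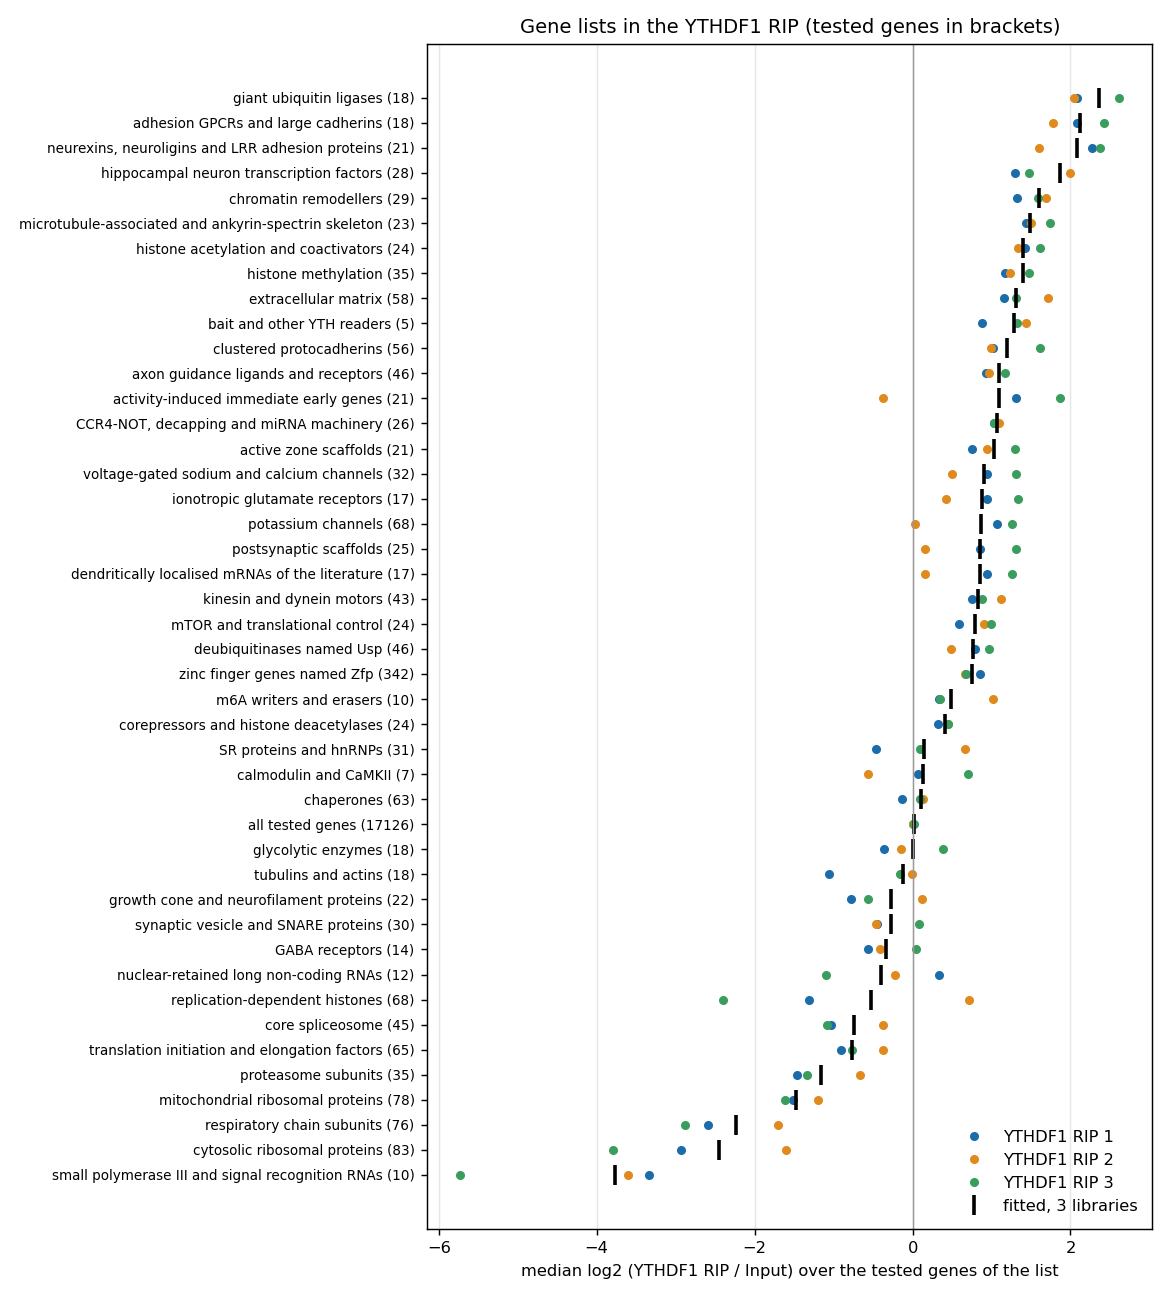
Median log2 fold change of the YTHDF1 RIP over Input for each gene list and for all tested genes (x axis), with the number of tested genes in brackets. Coloured points are the single RIP libraries against the mean Input and the black tick is the value fitted over the 3. Ubiquitin ligases, adhesion genes and transcription factors lie at the top, near 2, and ribosomal, respiratory chain and polymerase III genes at the bottom, from -2.24 down to -3.77, while library 2 stands apart for immediate early genes and histones.

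The labelled cell type was present by its markers, with uneven levels of markers of other cells. All 6 pan-neuronal markers were detected, and their summed level was 1783 to 2685 CPM in Input and 1396 to 2116 in the RIP. The 7 astrocyte markers summed to 1013 to 3362 CPM in Input and 1246 to 2921 in the RIP, with Input library 1 the lowest. The 6 tested markers of the oligodendrocyte lineage summed to 58.8 to 403 and 369.6 to 1462 CPM. The 3 inhibitory neuron markers summed to 559, 165 and 535 CPM in RIP libraries 1, 2 and 3 and 553, 415 and 155 in Input libraries 1, 2 and 3, so RIP library 2 and Input library 3 were the lowest. The 5 fibroblast and mural markers summed to 6.47 to 104 CPM in Input and 86.00 to 129 in the RIP. Only 1 of 6 microglial and 1 of 4 endothelial markers passed the filter on low counts. In bulk RNA, fewer cells of a type and less RNA per cell cannot be told apart, and the part of these cells in the gene lists was not tested.

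Direct comparison with the other RIPs showed where YTHDF1 differed, with a fold change of at least 2 and an adjusted p of at most 0.05 in the same edgeR model. Against the YTHDF2 RIP, 1949 genes were higher in the YTHDF1 RIP, 11.4% of the genes tested, and 1045 were lower, 6.1%. Against the YTHDF3 RIP, 1858 were higher, 10.8%, and 621 lower, 3.63%. The lower counts depended on RIP library 2, and without it they were 1966 and 1015. With library size alone as the scaling the counts higher and lower were 1068 and 2796 against YTHDF2 and 767 and 3440 against YTHDF3, so the balance of the directions is not fixed by these data.

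The genes furthest above the YTHDF2 RIP were Kantr at 6.55 ± 0.53, the RNA-binding protein gene Rbms3 at 5.62 ± 0.56 and Elavl1, which encodes HuR, a stabiliser of AU-rich mRNAs, at 5.43 ± 0.50. The YTHDF1 RIP libraries held 669.8, 2632 and 794 CPM of Elavl1 and the Input libraries 71.2, 72.8 and 78.8. For YTHDF2 the libraries were at 38.02, 28.5 and 28.5 and for YTHDF3 at 40.6, 34.7 and 37.7 CPM. Every YTHDF1 RIP library was thus above every other library, and both other RIPs were below Input. Furthest above the YTHDF3 RIP were Kantr at 5.67 ± 0.50, Zfp369 at 5.51 ± 0.40 and Aasdhppt, the phosphopantetheinyl transferase gene, at 5.48 ± 0.48. For Aasdhppt the YTHDF1 RIP libraries were at 142, 594 and 210.3 CPM and those of YTHDF3 at 7.31, 7.48 and 6.42, with RIP library 2 again the highest. Furthest below the YTHDF2 RIP were Lars2 at -3.70 ± 0.61, the retrotransposon-derived imprinted gene Rtl1 at -3.56 ± 0.38 and Snrnp48, a protein of the minor spliceosome, at -3.52 ± 0.32. Furthest below the YTHDF3 RIP were Rsrp1 at -2.700 ± 0.35, Ankrd16 at -2.48 ± 0.32 and Spaca6 at -2.33 ± 0.44.

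Among the lists, members that differed from the other RIPs were counted for transcription factors first. Of 28 hippocampal transcription factor genes 18 were higher than in the YTHDF2 RIP and 15 higher than in the YTHDF3 RIP, and none was lower in either. Zbtb20 was at 5842, 24932 and 10632 CPM with YTHDF1, 748, 790.3 and 659.6 with YTHDF2 and 1981, 1542 and 1568 with YTHDF3, a log2 difference of 4.24 ± 0.47 and 3.02 ± 0.44. Nfia differed by 4.63 ± 0.69 and 3.51 ± 0.66 and Tcf4 by 3.54 ± 0.44 and 2.35 ± 0.42, values chosen for mention after they were seen. Of 21 neurexins, neuroligins and leucine-rich repeat genes 17 were higher than in the YTHDF2 RIP and 12 than in the YTHDF3 RIP. Members of the list named giant ubiquitin ligases were higher in 9 and 8 of 18 cases, and clustered protocadherins in 20 and 20 of 56. Ribosomal protein genes were lower than in the YTHDF2 RIP in 4 of 83 cases and higher in none, and higher than in the YTHDF3 RIP in 13 and lower in none. Replication-dependent histones were higher than in the YTHDF3 RIP in 33 of 68 cases and lower in 1. Against Input their medians were -1.31, 0.72 and -2.40 in YTHDF1 RIP libraries 1, 2 and 3, and the fitted median of the YTHDF3 RIP was -2.96. YTHDF1 RIP library 2 was thus furthest from the YTHDF3 RIP and library 3 nearest, and the count without library 2 is not reported here. All 10 polymerase III entries were also higher than in the YTHDF3 RIP, although 9 of them were depleted against Input.

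**Figure D5:**
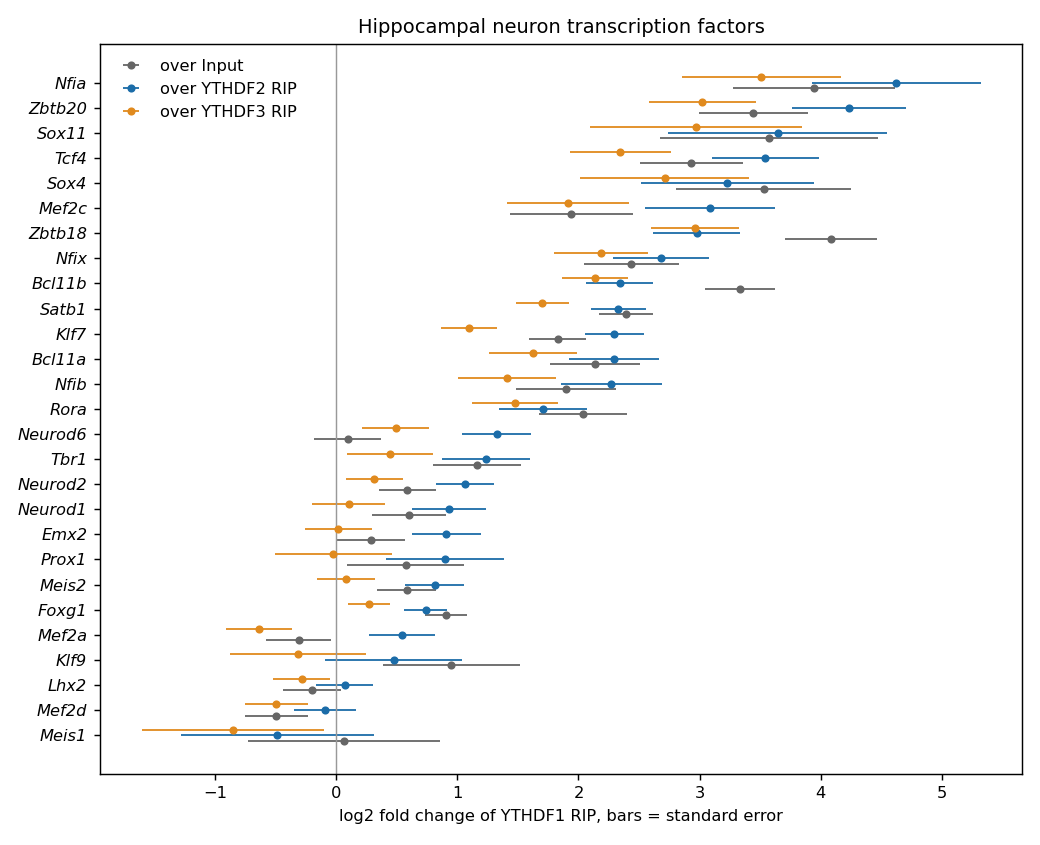
Log2 fold change (x axis) of the YTHDF1 RIP over Input (grey), over the YTHDF2 RIP (blue) and over the YTHDF3 RIP (orange) for the hippocampal neuron transcription factor genes named on the y axis, with bars of 1 standard error. Nfia and Zbtb20 lie furthest to the right against both other RIPs, and Meis1, Mef2d and Lhx2 lie near or below 0.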

How the data were processed

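Per the labels, the authors extracted UMIs with UMI-tools 1.1.1, trimmed reads with cutadapt 3.4, aligned them to mm10 (GRCm38) with STAR 2.7.7a and counted them with featureCounts 2.0.1. The deposited values used here are raw counts per gene of Ensembl release 97 annotation, by strand, and per the file headers a read over several genes or with several alignments was counted for each. The tables the authors deposited with DESeq2 fold changes and p-values hold their own comparisons and were not used. Genes that averaged 10 counts or more, after division by relative TMM-scaled library size, were tested with edgeR 4.0.16 in R 4.3.3 in 1 quasi-likelihood model of 4 groups and 12 libraries, with TMM factors over the tested genes and Benjamini-Hochberg adjustment. The biological coefficient of variation was 0.323. The method was tested on simulated data in which few genes changed, equally often up and down. That simulation does not bear on the scaling where many genes change, as in these libraries. Single-library log2 values used a prior count of 2 and the mean Input. Transcript features came from GENCODE release 21 of the mouse on GRCm38, for the transcript with the longest coding sequence, and promoters from RefSeq on GRCm38.p6, with 10427 of 13521 tested protein-coding genes matched.

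Named genes were protein-coding and called, averaged 100 or more normalized counts and did not overlap between groups. They were the 10 highest and 10 lowest, the 5 most abundant in each direction, the 2 highest enriched and 2 lowest depleted of each list, all members of lists of at most 12 genes, and the 3 highest and lowest of each direct comparison. Where 5 or fewer genes of a list were called, the others were named after their values were seen, and a few list members are not reported here. The comparison and the lists were chosen with earlier results of these data known, and the coding, exon and GGACT features after values were seen. Replicates are biological replicates by the study's methods, and counting error is included in the fit. Classes by gene description were not run, since the reference used here holds no descriptions. Alternatives were DESeq2 1.42.0, other scalings and filters, the 6 libraries alone, a replicate block, a loess length trend (span 0.3) removed, each library left out in turn, and, chosen after seeing the data, overlapping genes left out.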

Additional observations from a re-analysis of the deposited data

How the results depend on the processing

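Nearly all values of named genes kept their direction, which their choice favours. Most were chosen as the most extreme of the called genes and for groups that did not overlap. The tally therefore does not describe all calls. With the replicate block in the 6 libraries alone, 51.1% of the enriched and 68.2% of the depleted genes were still called. Of 3408 values of named genes under an alternative, 3229 kept direction and side of the threshold, 141 no longer passed, 29 passed anew and 9 changed sign. Of 817 list medians, 728 moved by less than the spread between libraries and 89 by more, and 26 in 8 lists changed sign. Unless a value or the setting itself shows it, the cause was not tested. Depth limits the rare genes, and single-library values of genes near the filter on low counts carry the largest counting error.

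By the study's methods a replicate shares an Input, but whether the replicate numbers mark this is not stated. Deviations from the group means of same-numbered YTHDF1 RIP and Input libraries correlated over genes at 0.09, -0.27 and -0.32, and those of RIP library 2 and Input library 3 at 0.47, so the numbers were not taken as pairs. With the replicate block 4561 genes were enriched and 4376 depleted in the model of 12 libraries, and 2393 and 3033 with the block in the 6 libraries alone.

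With library size alone 3087 genes were enriched against Input, 1068 were higher and 2796 lower than in the YTHDF2 RIP, and 767 higher and 3440 lower than in the YTHDF3 RIP. Genes lower than in the YTHDF3 RIP numbered 971 with TMM factors from protein-coding genes, 1174 with no filter, where more genes were tested, 992 with the length trend removed and 989 with that and the replicate block, while 1228 and 1122 were higher. Leaving out 1 library at a time gave 794 to 1966 genes lower than in the YTHDF2 RIP and 495 to 1015 lower than in the YTHDF3 RIP, in both cases lowest without YTHDF1 RIP library 3 and highest without library 2.

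The difference in median between the longest and shortest bin of summed exon length fell from 1.84 to 0.41 with the length trend removed and 0.41 with the replicate block added, by construction. The difference between the most and least abundant bin by CPM over the 6 libraries compared, which hold the counts that set the fold change, was 1.19. It was 0.54 and 0.49 in these fits and 0.52 for abundance per kb of exon.

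The following are list medians less the median of all tested genes. With the length trend removed, first without and then with the replicate block, they were 0.33 and 0.31 for CCR4-NOT, decapping and miRNA machinery (from 1.05), -0.89 and -0.89 for GABA receptors (from -0.36), 0.41 and 0.40 for active zone scaffolds (from 1.01), 1.23 and 1.14 for adhesion GPCRs and large cadherins (from 2.10), 0.21 and 0.27 for axon guidance ligands and receptors (from 1.07), 0.84 and 0.81 for bait and other YTH readers (from 1.27), -0.13 and -0.15 for chaperones (from 0.086), 0.47 and 0.45 for chromatin remodellers (from 1.58), -0.046 and -0.073 for corepressors and histone deacetylases (from 0.39), 0.33 and 0.33 for deubiquitinases named Usp (from 0.74), 0.57 and 0.62 for extracellular matrix (from 1.28), 0.89 and 0.88 for giant ubiquitin ligases (from 2.34), 0.90 and 0.84 for hippocampal neuron transcription factors (from 1.84), 0.72 and 0.72 for histone acetylation and coactivators (from 1.37), 0.52 and 0.53 for histone methylation (from 1.37), 0.30 and 0.27 for ionotropic glutamate receptors (from 0.85), 0.33 and 0.49 for kinesin and dynein motors (from 0.81), 0.32 and 0.31 for mTOR and translational control (from 0.76), 0.43 and 0.41 for microtubule-associated and ankyrin-spectrin skeleton (from 1.47), -1.11 and -1.12 for mitochondrial ribosomal proteins (from -1.50), -1.20 and -1.21 for nuclear-retained long non-coding RNAs (from -0.43), 0.14 and 0.13 for postsynaptic scaffolds (from 0.84), -1.61 and -1.63 for respiratory chain subunits (from -2.26) and 0.22 and 0.20 for voltage-gated sodium and calcium channels (from 0.88). Long mRNAs lose and short ones gain in this correction by its construction.

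With no filter on low counts, which adds genes to the lists and to the background, they were 0.66 for CCR4-NOT, decapping and miRNA machinery, 0.64 for active zone scaffolds, 0.70 for axon guidance ligands and receptors, 0.89 for bait and other YTH readers, -0.33 for chaperones, 1.20 for chromatin remodellers, 0.81 for clustered protocadherins, -1.17 for core spliceosome, 0.016 for corepressors and histone deacetylases, 0.42 for deubiquitinases named Usp, 0.95 for extracellular matrix, 1.96 for giant ubiquitin ligases, 1.46 for hippocampal neuron transcription factors, 0.99 for histone acetylation and coactivators, 1.00 for histone methylation, 0.47 for kinesin and dynein motors, 0.38 for mTOR and translational control, 1.0999 for microtubule-associated and ankyrin-spectrin skeleton, -1.89 for mitochondrial ribosomal proteins, -0.67 for synaptic vesicle and SNARE proteins, -1.21 for translation initiation and elongation factors and 0.35 for zinc finger genes named Zfp. With a minimum mean of 50 counts they were 0.97 for CCR4-NOT, decapping and miRNA machinery and 0.30 for corepressors and histone deacetylases. With genes that overlap on the same strand left out, which leaves fewer members, they were 1.07 for chromatin remodellers, 3.64 for clustered protocadherins and 3.39 for nuclear-retained long non-coding RNAs. Of the 12 long non-coding RNAs 10 overlap and were left out, so the value of 3.39 rests on very few genes, Kantr among them.

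Leaving out 1 library at a time moved these medians by over 1.5 times or across 0 in 15 lists. GABA receptors went from -0.36 to -0.59 without YTHDF1 RIP library 3 and -0.20 without Input library 1. SR proteins and hnRNPs went from 0.12 to -0.20 without YTHDF1 RIP library 2 and 0.36 without YTHDF1 RIP library 1. Activity-induced immediate early genes went from 1.07 to 0.64 without YTHDF1 RIP library 3 and 1.44 without YTHDF1 RIP library 2. Calmodulin and CaMKII went from 0.11 to -0.35 without YTHDF1 RIP library 3 and 0.41 without YTHDF1 RIP library 2. Chaperones went from 0.086 to -0.0031 without Input library 2 and 0.23 without YTHDF1 RIP library 1. Corepressors and histone deacetylases went from 0.39 to 0.25 without Input library 1 and 0.43 without Input library 2. Dendritically localised mRNAs of the literature went from 0.84 to 0.45 without YTHDF1 RIP library 3 and 1.14 without YTHDF1 RIP library 2. Glycolytic enzymes went from -0.021 to -0.33 without YTHDF1 RIP library 3 and 0.22 without YTHDF1 RIP library 1. Growth cone and neurofilament proteins went from -0.29 to -0.62 without YTHDF1 RIP library 2 and -0.13 without YTHDF1 RIP library 1. The m6A writers and erasers went from 0.46 to 0.21 without YTHDF1 RIP library 2 and 0.67 without YTHDF1 RIP library 1. Nuclear-retained long non-coding RNAs went from -0.43 to -0.71 without YTHDF1 RIP library 1 and -0.032 without YTHDF1 RIP library 3. Potassium channels went from 0.85 to 0.54 without YTHDF1 RIP library 3 and 1.15 without YTHDF1 RIP library 2. Replication-dependent histones went from -0.55 to -2.17 without YTHDF1 RIP library 2 and 0.096 without Input library 3. Synaptic vesicle and SNARE proteins went from -0.30 to -0.52 without Input library 3 and -0.036 without Input library 1. Tubulins and actins went from -0.14 to -0.61 without YTHDF1 RIP library 2 and 0.20 without YTHDF1 RIP library 1.

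By less than that, leaving out 1 library gave 1.03 to 1.11 for CCR4-NOT, decapping and miRNA machinery, 0.86 to 1.35 for active zone scaffolds, 0.91 to 1.12 for axon guidance ligands and receptors, 0.99 to 1.51 for extracellular matrix, 1.40 to 1.97 for hippocampal neuron transcription factors, 0.66 to 1.01 for kinesin and dynein motors, 0.67 to 0.98 for mTOR and translational control and 1.36 to 1.69 for microtubule-associated and ankyrin-spectrin skeleton.

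Signs of single genes changed with the length trend removed, without and with the replicate block, to -0.64 and -0.66 for Camk2d, -1.59 and -1.67 for Kcnq1ot1, -1.44 and -1.44 for Rian and -0.46 and -0.46 for Ythdc1, and without YTHDF1 RIP library 2 to -0.50 for Mettl14.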
